A study of Mus musculus with 20 samples.

Results

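The comparison described here set 4 hearts taken 4 weeks after a sham operation against 4 hearts taken 2 weeks after one, with 2 hearts of each genotype at each time. They are 8 of the 20 hearts of the series, and they were chosen by their labels alone. At 4 weeks these were CKO hearts 4 and 8 and control hearts 6 and 7. At 2 weeks they were CKO hearts 14 and 15 and control hearts 12 and 16. Hearts are named by the numbers of their labels, and values of a gene are given in this order. The mice were C57BL/6, and every one, the controls included, carried floxed Wnt5a (Wnt5a floxed), while CKO mice carried in addition the transgene written Myh6-Cre/Esr 1. The Myh6 promoter drives that Cre recombinase in heart muscle cells, so the other cells of a CKO heart keep the gene, and fusion to part of the oestrogen receptor makes the recombinase depend on tamoxifen. The other 12 hearts were taken at the end of tamoxifen treatment without an operation, or 2 and 4 weeks after TAC (transverse aortic constriction, which narrows the aorta and loads the left ventricle). Age, sex, the hour of sampling and the time between tamoxifen and the operation are not in the labels, and tamoxifen in the operated mice is not stated there. The 2 times were sampled from different mice, so time since the operation cannot be told apart from age or from the day of collection.

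A sham operation opens the chest and exposes the aorta without narrowing it. It is the reference state for pressure overload, and it still brings anaesthesia, a wound, inflammation and a period of recovery. The adult heart runs mainly on the oxidation of fatty acids in mitochondria, keeps its ion channels at set levels, and follows the daily clock. Its transcripts also shift with feeding, stress and hour as well as with growth.

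Messenger RNA of whole hearts was read as FPKM, the number of sequenced fragments a gene receives per kilobase of transcript, corrected for the size of the library. Of 23284 genes in the files, 12589 averaged 0.5 FPKM or more across all 20 hearts and were tested. Fragment totals are not given in the sources used here, and relative depth, estimated from the steps between low values, was 0.892 to 1.08 in the 8 sham hearts. Markers of ventricular muscle were abundant in each of them, with Myl2 at 28220 to 32399.8 FPKM at 4 weeks and 32794.3 to 41290.2 FPKM at 2 weeks. Esr1, whose sequence the transgene carries, lay at 548 to 931 FPKM in CKO hearts and 0.101 to 0.339 FPKM in control hearts, so no genotype label was contradicted. Myl7, the light chain of atrial muscle, was listed at 0 in all 4 hearts of 4 weeks, but had 372 FPKM in CKO heart 14, 32.2 FPKM in control heart 16 and 0.736 FPKM in control heart 12 of 2 weeks. Of 6 atrial markers, 5 passed the filter, and their summed level was 182 to 219 FPKM at 4 weeks and 122 to 1361 FPKM at 2 weeks. Their part in the results was not tested, and a fit without the hearts of 10 FPKM or more of Myl7 (14, 16 and 3 of other groups) was run as an alternative. Log2 values of 2 hearts correlated across genes about as well at different times (Pearson r 0.969 to 0.979, 16 pairs) as within a genotype and time (0.970 to 0.978, 4 pairs).

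No gene passed the test of 4 against 2 weeks over both genotypes. Limma, fitted across all 12589 genes on log2(FPKM + 0.5) with 1 mean for each of 10 groups, gave 0 genes (0%) at a Benjamini-Hochberg adjusted p under 0.05, and the smallest adjusted p was 0.132. At an unadjusted p under 0.05 it gave 1894 genes (15.0%), of which 1013 (8.05%) were higher and 881 (7.00%) lower at 4 weeks. All 4 hearts of 4 weeks lay above all 4 of 2 weeks in 573 genes (4.55%) and below them in 407 (3.23%). Within each genotype the times did not overlap in 866 genes that were higher (6.88%) and 688 that were lower (5.47%) at 4 weeks. In CKO hearts alone limma gave 0 genes (0%, smallest adjusted p = 0.158), and 1094 (8.69%) at an unadjusted p under 0.05, 588 (4.67%) higher and 506 (4.02%) lower. In control hearts alone it gave 0 genes (0%, smallest adjusted p = 0.148), and 1542 (12.2%) at an unadjusted p under 0.05, 816 (6.48%) higher and 726 (5.77%) lower. Leaving out a heart turned the 0 over both genotypes into 2 without heart 6, 1 without heart 7, 4 without heart 14 and 2 without heart 15. All of these were small RNA loci except Fibp without heart 14 and Bcl6 without heart 15. In CKO hearts the count became 4 without heart 14 and 1 without heart 15, and in control hearts 3 without heart 6, 1 without heart 7 and 1 without heart 16. At an unadjusted p under 0.05 the count over both genotypes and that in CKO hearts fell without heart 8 and rose without heart 4. The count in control hearts fell with any 1 of its hearts left out.

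The differences were small as well as uncertain. Across all tested genes 90% of the log2 differences lay between -0.31 and 0.32, that is between 0.808-fold and 1.246-fold, and the median SE of a difference was 0.11. With that SE a 95% interval reaches 0.25 to either side on the log2 scale. A difference of at least 1 on the log2 scale was seen in 71 genes (0.564%), and 38 of those were small RNA loci, all but Mir703 listed at 0 in at least 1 of the 8 hearts. Outside the small RNA loci the largest differences belonged to Myl7, Myl4, Sln, S100a8 and S100a9, markers of atrial muscle and of neutrophils, which hearts of the same time held at very different levels. The differences of control and CKO hearts, which share no heart, correlated weakly across genes (Pearson r = 0.095, Spearman correlation = 0.213).

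Bcl6, a zinc finger repressor of transcription known for the germinal centre and for restraint of inflammatory genes, had the largest log2 difference among the 10 genes named for the smallest p in the direction higher at 4 weeks. It stood at 11.2 and 10.1 FPKM in CKO and 12.9 and 13.1 FPKM in control hearts at 4 weeks, against 4.33 and 8.24 FPKM in CKO and 4.61 and 5.07 FPKM in control hearts at 2 weeks. The 10 genes named in each direction were picked among genes whose times did not overlap within either genotype, so their separation was favoured by the choice. For Bcl6 the groups did not overlap, and CKO heart 15 was the highest at 2 weeks. Its mean was 11.8 ± 1.46 FPKM at 4 weeks and 5.56 ± 1.81 FPKM at 2 weeks (SD, n = 4 each), a log2 difference of 1.06 ± 0.18 (SE) that did not pass (limma adjusted p = 0.132). It passed without heart 15 (limma adjusted p = 0.0294). The log2 difference was 0.77 in CKO and 1.34 in control hearts, and the test of CKO minus control did not pass (-0.57 ± 0.37, limma adjusted p = 0.876, 95% interval -1.36 to 0.22). At the end of tamoxifen the 4 hearts had 4.41 to 6.53 FPKM. Bcl6 lies on chromosome 16, 23965052 to 23988852, minus strand (mm10).

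The promoter of Bcl6 is shown beside those of 3 clock genes, because its window and theirs hold motifs of the daily clock. They were chosen after the values had been seen. The E-box CACGTG is the motif bound by the clock activators CLOCK and BMAL1, and AGGTCA is the core site of the ROR and REV-ERB nuclear receptors. The windows lie upstream of the RefSeq transcription start (GRCm38.p6, all on the minus strand, written 5′ to 3′ in the direction of the gene), with the motif and its reverse complement in capitals.

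Bcl6, chr16:23988877-23988942: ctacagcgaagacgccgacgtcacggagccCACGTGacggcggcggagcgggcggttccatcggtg

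Cry1, chr10:85185079-85185144: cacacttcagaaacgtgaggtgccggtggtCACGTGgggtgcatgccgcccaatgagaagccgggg

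Ciart, chr3:95882237-95882374: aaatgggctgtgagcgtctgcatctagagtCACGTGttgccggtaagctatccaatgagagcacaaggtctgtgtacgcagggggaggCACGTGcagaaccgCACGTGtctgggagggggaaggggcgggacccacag

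Nfil3, chr13:52981040-52981081: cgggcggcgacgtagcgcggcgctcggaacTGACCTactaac

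CACGTG reads the same on both strands. It begins 60 bases before the start in Bcl6 and likewise 60 bases before it in Cry1, and Ciart holds 3 copies between 116 and 44 bases before its start. Ciart, a clock repressor that the files list as Gm129, had 0.778 to 2.12 FPKM at 4 weeks and 1.00 to 2.96 FPKM at 2 weeks. In Nfil3 the AGGTCA site stands on the opposite strand as TGACCT, 12 bases before the start. Over all 32851 RefSeq promoter windows (250 bases before to 50 after a start), 7.15% hold CACGTG and 16.3% hold AGGTCA on either strand. Of the 24 clock genes listed, 19 had a window, and 5 of these held CACGTG and 5 held AGGTCA. A gene was counted when any of its windows held the motif, so these counts cannot be set against the shares of single windows. A match is a description of the letters.

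The other genes named as higher at 4 weeks had no overlap between the 8 hearts and shared the adjusted p of Bcl6. Egln3, a prolyl hydroxylase that marks hypoxia-inducible factor for breakdown, stood at 66.4 and 104 FPKM in CKO and 57.1 and 80.8 FPKM in control hearts at 4 weeks, against 48.3 and 49.2 FPKM in CKO and 37.6 and 39.3 FPKM in control hearts at 2 weeks. Heart 8 was the highest, and the log2 difference was 0.79 ± 0.16 (SE, limma adjusted p = 0.132). Foxo3, a forkhead factor of the insulin pathway that drives atrophy and autophagy genes, stood at 11.3 and 11.7 FPKM in CKO and 12.7 and 11.7 FPKM in control hearts at 4 weeks, against 7.48 and 7.12 FPKM in CKO and 7.81 and 8.90 FPKM in control hearts at 2 weeks, a log2 difference of 0.57 ± 0.12. Here the 4 hearts of each time kept within a narrow range.

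Zbed3, which binds axin in the Wnt pathway, was nearly level within each time, with 8.46 and 8.45 FPKM in CKO and 8.79 and 8.60 FPKM in control hearts at 4 weeks, against 5.48 and 5.27 FPKM in CKO and 6.25 and 5.42 FPKM in control hearts at 2 weeks. The log2 difference was 0.57 ± 0.10. Values in brackets after FPKM levels are log2 differences of 4 minus 2 weeks with their SE. Spon2, a secreted matrix protein of the spondin family, stood at 14.5 and 17.7 FPKM in CKO and 11.0 and 10.8 FPKM in control hearts at 4 weeks, against 8.91 and 7.47 FPKM in CKO and 7.61 and 7.57 FPKM in control hearts at 2 weeks, and the 2 CKO hearts of 4 weeks were above the others (0.72 ± 0.14). Gaa, the lysosomal glucosidase whose loss gives Pompe disease, stood at 47.1 to 57.8 FPKM at 4 weeks and 39.3 to 44.9 FPKM at 2 weeks, with the control hearts of 4 weeks above the CKO hearts (0.31 ± 0.06). Klhl21, an adaptor of a cullin ubiquitin ligase, had 33.5 to 43.1 FPKM at 4 weeks and 28.1 to 29.5 FPKM at 2 weeks (0.37 ± 0.07), and Hivep1, a zinc finger factor, had 5.27 to 6.35 FPKM at 4 weeks and 3.801 to 4.49 FPKM at 2 weeks (0.50 ± 0.10). Sympk, a scaffold of messenger RNA 3′ end processing, was at 27.7 to 34.8 FPKM at 4 weeks and 23.8 to 26.1 FPKM at 2 weeks (0.36 ± 0.07). Itfg3 and Mtap7d1 completed this set with 52.8 to 55.8 FPKM at 4 weeks and 39.8 to 44.9 FPKM at 2 weeks, and 107 to 130.3 FPKM at 4 weeks and 91.6 to 98.8 FPKM at 2 weeks, at 0.35 ± 0.06 and 0.38 ± 0.08.

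**Figure D1:**
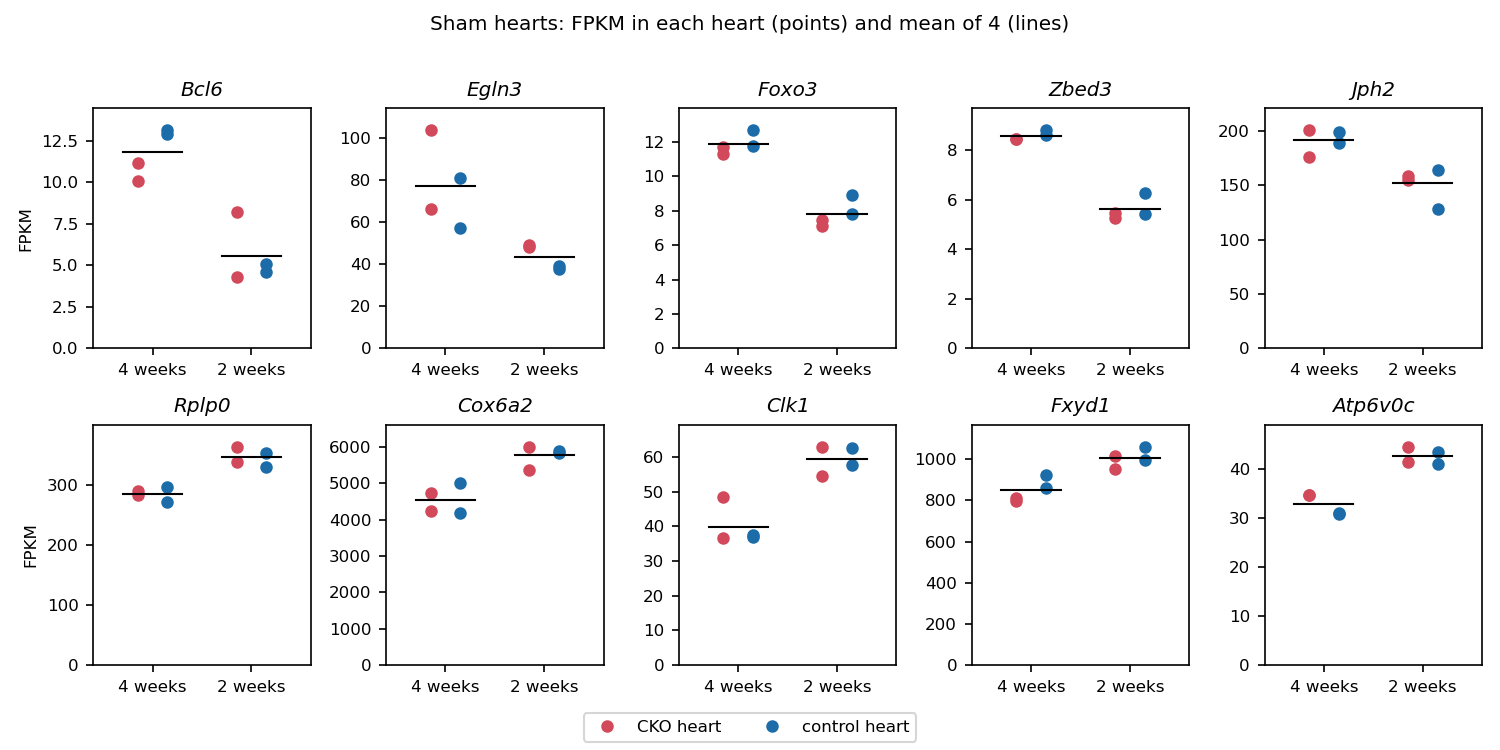
FPKM of 10 genes (y axes, from 0) in each sham heart, 4 weeks left of 2 weeks (x axes), with CKO hearts in red, control hearts in blue and a line at the mean of 4 hearts. In each panel the 4 hearts of one time lie wholly above the 4 of the other, and Bcl6 has means of 11.8 and 5.56 FPKM. All but Foxo3 and Jph2 were picked among genes whose times did not overlap within either genotype, so this separation was favoured by the choice. Of all genes 4.55% were higher and 3.23% lower at 4 weeks without overlap of the 8 hearts.

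Among the genes lower at 4 weeks was Rplp0, the P0 protein of the ribosomal stalk and a common reference gene in PCR work. It stood at 289 and 283 FPKM in CKO and 272 and 296 FPKM in control hearts at 4 weeks, against 338 and 363 FPKM in CKO and 353 and 329 FPKM in control hearts at 2 weeks. The groups did not overlap, with a log2 difference of -0.28 ± 0.05 (SE, limma adjusted p = 0.132). At the end of tamoxifen it had 275 to 295 FPKM, inside the range of the hearts of 4 weeks. Rpl14, of the large subunit, stood at 62.5 to 73.3 FPKM at 4 weeks and 77.1 to 89.1 FPKM at 2 weeks (-0.30 ± 0.06). Cox6a2, the heart and muscle isoform of a cytochrome c oxidase subunit, had 4744 and 4247 FPKM in CKO and 4180.1 and 5019 FPKM in control hearts at 4 weeks, against 5374 and 6002 FPKM in CKO and 5879.9 and 5829.6 FPKM in control hearts at 2 weeks. The groups did not overlap. Its log2 difference was -0.35 ± 0.07, with -0.34 in CKO and -0.35 in control hearts.

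Fxyd1 (phospholemman), which restrains the sodium pump of heart muscle, stood at 799.7 and 814 FPKM in CKO and 863 and 926 FPKM in control hearts at 4 weeks, against 953 and 1017 FPKM in CKO and 997 and 1061 FPKM in control hearts at 2 weeks. Both CKO hearts of 4 weeks were below both control hearts, and the log2 difference was -0.24 ± 0.05. Clk1, a kinase of splicing factors, had 48.5 and 36.6 FPKM in CKO and 36.8 and 37.4 FPKM in control hearts at 4 weeks, against 63.0 and 54.5 FPKM in CKO and 62.7 and 57.8 FPKM in control hearts at 2 weeks. CKO heart 4 lay nearest to the hearts of 2 weeks, and the log2 difference was -0.58 ± 0.12. Atp6v0c, the proton-carrying ring of the vacuolar ATPase, stood at 30.7 to 34.7 FPKM at 4 weeks and 40.9 to 44.5 FPKM at 2 weeks (-0.37 ± 0.07), and Ppib, a proline isomerase of the endoplasmic reticulum, at 111 to 119.8 FPKM at 4 weeks and 135 to 141 FPKM at 2 weeks (-0.28 ± 0.05). Phkg2, the catalytic subunit of phosphorylase kinase in liver and other tissues, had 6.92 to 8.77 FPKM at 4 weeks and 9.27 to 11.7 FPKM at 2 weeks (-0.40 ± 0.08). Larp7, which binds the 7SK RNA, had 12.3 to 16.2 FPKM at 4 weeks and 17.6 to 19.7 FPKM at 2 weeks (-0.36 ± 0.07), and Slc35b1, a nucleotide carrier of the endoplasmic reticulum, had 30.4 to 37.8 FPKM at 4 weeks and 39.2 to 45.2 FPKM at 2 weeks (-0.31 ± 0.07). None of these passed, and each had an adjusted p of 0.132 by limma.

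Rplp0 and Rpl14 were looked at together with the other ribosomal protein genes, a list made after their values had been seen. Of 67 tested, 21 (31.3%) were lower and 1 higher at an unadjusted p under 0.05, against 7.00% and 8.05% of all genes, and 0 passed the adjustment. Their median log2 difference was -0.17, that of all genes 0.00, and 62 of the 67 differences were negative. Their summed level was 8712 to 9185 FPKM in the 4 hearts of 4 weeks and 9681 to 10351 FPKM in the 4 hearts of 2 weeks, without overlap. In 13 (19.4%) the hearts did not overlap, all of them lower at 4 weeks, against 3.23% of all genes. The median was -0.14 in CKO and -0.19 in control hearts.

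Genes of oxidative phosphorylation lay the same way. Of 75 tested, 20 (26.7%) were lower and 1 (1.33%) higher at an unadjusted p under 0.05, against 7.00% and 8.05% of all genes. The adjustment was passed by 0. Of the 75 differences 67 were negative, with a median of -0.12, against 6259 of 12589 negative over all genes. Atp5k, the e subunit of ATP synthase, had 3048 and 3322 FPKM in CKO and 3092 and 3621 FPKM in control hearts at 4 weeks, against 3638 and 4316 FPKM in CKO and 4152 and 3786 FPKM in control hearts at 2 weeks. Control heart 7 came nearest to the hearts of 2 weeks, and the log2 difference was -0.28 ± 0.08. Uqcr10, a small subunit of complex III, had 1879 to 2338 FPKM at 4 weeks and 2419.9 to 2516 FPKM at 2 weeks (-0.24 ± 0.07). The single higher gene was Uqcrc1, a large core subunit of the same complex, at 928 to 1196 FPKM at 4 weeks and 889 to 976 FPKM at 2 weeks (a log2 difference of 0.23 ± 0.08). Under quantile normalization the median was -0.03. The summed level of the list overlapped between the times, with 102863 to 119982 FPKM at 4 weeks and 110288 to 124998 FPKM at 2 weeks.

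Both lists hold short transcripts, and in these hearts the difference between times went with transcript length. The median length was 930 bases in the ribosomal list, 908 in oxidative phosphorylation and 3151 over the 11046 tested genes (87.7%) that have a length in GENCODE M21. Across those genes the log2 difference had a Spearman correlation of 0.284 with length, 0.162 in CKO and 0.291 in control hearts, and -0.072 for the same times after TAC. In 5 groups of genes of rising length the median log2 difference was -0.08 in the shortest and 0.08 in the longest group. Heart by heart, the Spearman correlation of the deviation from the sham mean with length was -0.069, 0.147, 0.281 and 0.139 in hearts 4, 8, 6 and 7 of 4 weeks, and -0.153, -0.124, -0.254 and -0.049 in hearts 14, 15, 12 and 16 of 2 weeks. Only CKO heart 4 of the 4-week hearts was on the side of the 2-week hearts. With each heart's length trend removed, a step chosen after seeing the data, the medians were -0.08 for ribosomal proteins and -0.04 for oxidative phosphorylation, and Bcl6 stood at 1.04. Fragment length and RNA quality were not analysed here.

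**Figure D2:**
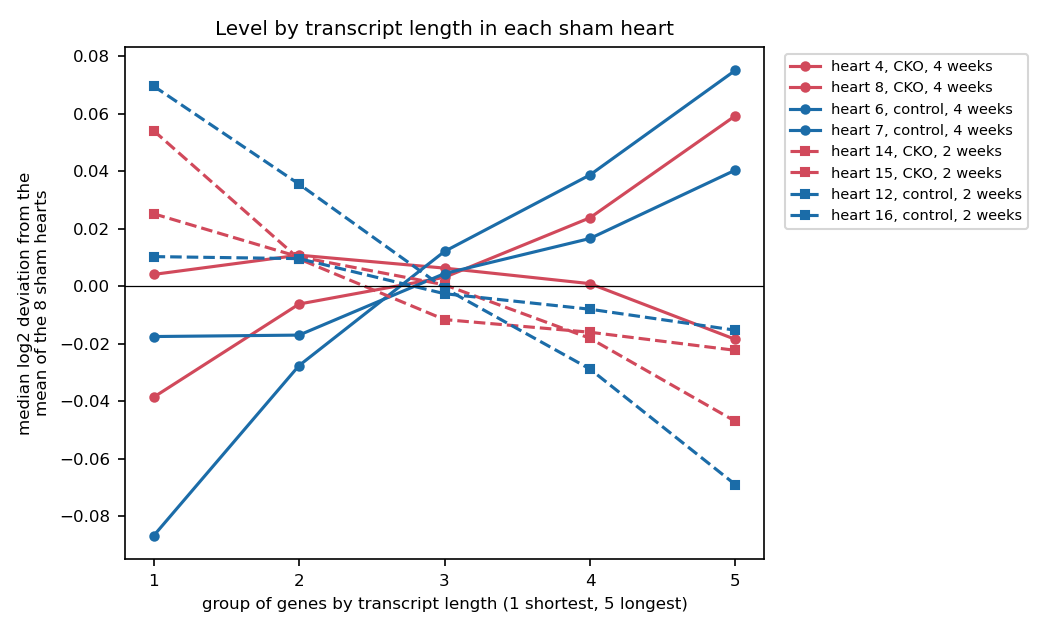
Median log2 deviation from the mean of the 8 sham hearts (y axis) in 5 equal groups of 11046 genes ordered by transcript length (x axis, shortest at the left), 1 line per heart, solid for 4 weeks and dashed for 2 weeks, CKO hearts red and control hearts blue. Hearts 6, 7 and 8 of 4 weeks slope upward and the 4 hearts of 2 weeks slope downward, while heart 4 of 4 weeks lies between -0.02 and 0.01.

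The fuel and contraction genes gave mixed counts at an unadjusted p under 0.05, where 8.05% of all genes were higher and 7.00% lower. Of 28 fatty acid oxidation genes, 3 (10.7%) were lower and 1 (3.57%) higher at an unadjusted p under 0.05, with a median log2 difference of -0.08. Acads, the short-chain acyl-CoA dehydrogenase, was the higher one, with 167 and 198 FPKM in CKO and 203 and 208 FPKM in control hearts at 4 weeks, against 162 and 168 FPKM in CKO and 146 and 158 FPKM in control hearts at 2 weeks. Only CKO heart 4 of the 4-week hearts lay inside the range of 2 weeks, and the log2 difference was 0.29 ± 0.07 (limma adjusted p = 0.137). Hadha, the alpha subunit of the mitochondrial trifunctional protein, stood at 548 to 595 FPKM at 4 weeks and 566 to 729 FPKM at 2 weeks (-0.22 ± 0.09). In the tricarboxylic acid cycle 2 of 22 were higher and 1 lower, Ogdh among the higher with 382 to 467 FPKM at 4 weeks and 321 to 389 FPKM at 2 weeks (0.27 ± 0.10).

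In glycolysis 3 of 19 (15.8%) were higher and 0 lower, against 8.05% and 7.00% of all genes. The higher genes were led by the muscle phosphoglycerate mutase Pgam2 at 829.7 to 1009 FPKM at 4 weeks and 757 to 790.1 FPKM at 2 weeks (0.21 ± 0.06). Acacb, the acetyl-CoA carboxylase that restrains fatty acid entry into mitochondria, had 43.7 and 53.6 FPKM in CKO and 52.3 and 55.5 FPKM in control hearts at 4 weeks, against 36.8 and 41.5 FPKM in CKO and 37.7 and 41.5 FPKM in control hearts at 2 weeks. All 4 hearts of 4 weeks were above all 4 of 2 weeks, and the log2 difference was 0.37 ± 0.09 (limma adjusted p = 0.137). It was 1 of 2 higher genes among 28 of lipid and cholesterol synthesis, where 0 were lower. Of 22 sarcomere genes 3 (13.6%) were lower and 0 higher, among them Tnni3, cardiac troponin I, with 8846 to 11447 FPKM at 4 weeks and 9958 to 11929 FPKM at 2 weeks (-0.21 ± 0.08), and Tnnc1, cardiac troponin C (-0.22 ± 0.09). Among 17 genes of fasting and PPAR targets 0 reached an unadjusted p of 0.05 in either direction.

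Ion channels and calcium handling had a larger share of higher genes at an unadjusted p under 0.05 than the whole set. In the list 8 of 36 (22.2%) were higher and 2 (5.56%) lower, against 8.05% and 7.00% of all genes, and 0 passed the adjustment. Jph2 (junctophilin 2), which holds the T-tubule and sarcoplasmic reticulum together, had 176 and 200.5 FPKM in CKO and 189 and 199 FPKM in control hearts at 4 weeks, against 159 and 155 FPKM in CKO and 129 and 164 FPKM in control hearts at 2 weeks. The times did not overlap, at a log2 difference of 0.34 ± 0.10 (SE, limma adjusted p = 0.164). Hcn2, a pacemaker channel, stood at 14.4 and 12.9 FPKM in CKO and 8.996 and 9.24 FPKM in control hearts at 4 weeks, against 6.62 and 8.39 FPKM in CKO and 9.45 and 4.88 FPKM in control hearts at 2 weeks. The CKO hearts of 4 weeks were the highest, while control hearts of 4 weeks overlapped those of 2 weeks (0.61 ± 0.17). Kcnj12, an inward rectifier, had 11.2 to 12.8 FPKM at 4 weeks and 8.54 to 10.7 FPKM at 2 weeks (0.33 ± 0.10). In the other direction Casq1, the calsequestrin of fast skeletal muscle, had 2.94 and 2.61 FPKM in CKO and 4.63 and 4.64 FPKM in control hearts at 4 weeks, against 6.73 and 4.99 FPKM in CKO and 6.49 and 14.6 FPKM in control hearts at 2 weeks. Heart 16 was far above the rest, and the log2 difference was -0.97 ± 0.24 (limma adjusted p = 0.139). With the length trend removed the median of the list was 0.06, against 0.10 as deposited.

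Wnt5a, the deleted gene, encodes a secreted ligand of the non-canonical Wnt branch. It stood at 2.14 and 2.02 FPKM in CKO and 3.87 and 4.11 FPKM in control hearts at 4 weeks, against 1.76 and 2.11 FPKM in CKO and 2.55 and 3.06 FPKM in control hearts at 2 weeks. Both control hearts of 4 weeks were above both of 2 weeks, and the CKO hearts of the 2 times overlapped. Over both genotypes the log2 difference was 0.27 ± 0.15 (SE, limma adjusted p = 0.409, 95% interval -0.05 to 0.58), and the genotypes did not pass the test of their difference (-0.36 ± 0.30, adjusted p = 0.92, 95% interval -0.99 to 0.28). At the end of tamoxifen the 4 hearts had 1.61 to 2.82 FPKM. Gene-level FPKM also counts exons that remain after recombination.

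Of 26 genes of the Wnt pathway tested 5 (19.2%) were higher and 1 (3.85%) lower at an unadjusted p under 0.05, against 8.05% and 7.00% of all genes. The median log2 difference of the list was 0.11, and 0.04 with the length trend removed. The co-receptors Lrp5 and Lrp6 had the smallest p of the list. Lrp5 stood at 15.4 and 17.2 FPKM in CKO and 17.1 and 15.3 FPKM in control hearts at 4 weeks, against 12.9 and 12.1 FPKM in CKO and 13.1 and 12.2 FPKM in control hearts at 2 weeks. Its groups did not overlap, at a log2 difference of 0.36 ± 0.09 (limma adjusted p = 0.139). Lrp6 had 8.73 to 9.87 FPKM at 4 weeks and 7.14 to 8.74 FPKM at 2 weeks (0.23 ± 0.07). Axin2, a feedback inhibitor and a common readout of beta-catenin, had 0.814 to 1.12 FPKM at 4 weeks and 0.360 to 0.782 FPKM at 2 weeks (0.40 ± 0.16), and Wif1, a secreted Wnt inhibitor, was the lower gene, with 0.454 to 0.770 FPKM at 4 weeks and 0.649 to 2.37 FPKM at 2 weeks (-0.80 ± 0.31).

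The series title joins Wnt5a to YAP, the co-activator of the Hippo pathway. Of 20 YAP and TEAD target or pathway genes, 4 (20%) were higher and 0 lower at an unadjusted p under 0.05, against 8.05% and 7.00% of all genes. The median log2 difference of the list was 0.10, and 0.03 with the length trend removed. Lats2, the kinase that restrains YAP and is itself a target, had 10.5 and 12.1 FPKM in CKO and 13.2 and 11.2 FPKM in control hearts at 4 weeks, against 9.85 and 8.66 FPKM in CKO and 8.96 and 9.09 FPKM in control hearts at 2 weeks. The times did not overlap (0.34 ± 0.09, limma adjusted p = 0.157). Arhgef17, a guanine nucleotide exchange factor, had 9.85 to 11.5 FPKM at 4 weeks and 6.90 to 9.01 FPKM at 2 weeks (0.37 ± 0.10), Amotl1, an angiomotin that binds YAP, 15.0 to 17.2 FPKM at 4 weeks and 12.7 to 14.5 FPKM at 2 weeks (0.26 ± 0.09), and Crim1, a membrane protein that binds BMPs, 8.69 to 10.5 FPKM at 4 weeks and 6.75 to 8.82 FPKM at 2 weeks (0.26 ± 0.07). Ankrd1, a YAP target that is also a stress gene of heart muscle, lay the other way, with 649 and 468 FPKM in CKO and 620.4 and 608 FPKM in control hearts at 4 weeks, against 1036 and 558 FPKM in CKO and 829 and 737 FPKM in control hearts at 2 weeks. CKO heart 15 overlapped the 4-week hearts, and the log2 difference was -0.41 ± 0.19 (limma adjusted p = 0.343).

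Growth factors gave 5 higher (23.8%) and 1 lower (4.76%) of 21 at an unadjusted p under 0.05, against 8.05% and 7.00% of all genes. Bmp4, a morphogen of the BMP branch, had 3.52 and 3.18 FPKM in CKO and 4.18 and 2.55 FPKM in control hearts at 4 weeks, against 1.85 and 2.12 FPKM in CKO and 1.81 and 2.13 FPKM in control hearts at 2 weeks. All hearts of 4 weeks were above those of 2 weeks, at 0.62 ± 0.17 (limma adjusted p = 0.15), but the 4 hearts at the end of tamoxifen had 3.33 to 6.49 FPKM. Tgfb3 stood at 6.52 to 8.31 FPKM at 4 weeks and 5.43 to 6.77 FPKM at 2 weeks (0.30 ± 0.09) and the endothelial growth factor Vegfa at 104 to 135 FPKM at 4 weeks and 89.8 to 111 FPKM at 2 weeks (0.28 ± 0.08). In the list of atrophy ligases and autophagy, which holds Foxo3, 3 of 17 were higher and 2 lower. Fbxo31, an F-box protein, had 27.2 to 29.2 FPKM at 4 weeks and 20.1 to 23.9 FPKM at 2 weeks (0.33 ± 0.09), and Map1lc3b, a coat protein of autophagosomes, 94.0 to 103 FPKM at 4 weeks and 102 to 118 FPKM at 2 weeks (-0.20 ± 0.07).

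Several genes varied more between hearts of the same time than between the times. Among 22 clock genes 2 (9.09%) were higher and 3 (13.6%) lower at an unadjusted p under 0.05, against 8.05% and 7.00% of all genes. Dbp, an output factor of the clock, stood at 24.2 and 6.54 FPKM in CKO and 17.4 and 4.87 FPKM in control hearts at 4 weeks, against 16.9 and 24.6 FPKM in CKO and 36.3 and 15.3 FPKM in control hearts at 2 weeks. Hearts 7 and 8 were the lowest of the 8 and heart 12 the highest (-0.98 ± 0.43, limma adjusted p = 0.307). Arntl (BMAL1), the activator that peaks opposite to Dbp, had 8.18 and 16.3 FPKM in CKO and 9.997 and 16.8 FPKM in control hearts at 4 weeks, against 10.7 and 8.04 FPKM in CKO and 6.45 and 13.1 FPKM in control hearts at 2 weeks. Here hearts 7 and 8 were the highest and heart 12 the lowest. Nfil3, a repressor that opposes Dbp, had 10.8 and 16.5 FPKM in CKO and 9.52 and 14.9 FPKM in control hearts at 4 weeks, against 12.3 and 6.45 FPKM in CKO and 6.46 and 8.25 FPKM in control hearts at 2 weeks (0.61 ± 0.22), again with hearts 7 and 8 on top. Nr1d2 (REV-ERB beta) did not overlap between the times, with 13.4 to 21.0 FPKM at 4 weeks and 21.6 to 28.5 FPKM at 2 weeks (-0.51 ± 0.15), and Cry1 had 3.04 to 6.49 FPKM at 4 weeks and 1.85 to 3.61 FPKM at 2 weeks (0.51 ± 0.22). The hour of sampling is not in the labels, and its part in these values was not tested.

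Myh7 and Nppb, chosen after their values were seen, split the 8 hearts in another way. Myh7, the slow myosin that returns in overload, stood at 149 and 17.3 FPKM in CKO and 22.3 and 164 FPKM in control hearts at 4 weeks, against 143 and 17.8 FPKM in CKO and 12.0 and 177 FPKM in control hearts at 2 weeks. In each of the 4 groups 1 heart was high (4, 7, 14 and 16) and the other low (8, 6, 15 and 12). Nppb, the brain natriuretic peptide, had 780.3 and 588 FPKM in CKO and 611 and 722 FPKM in control hearts at 4 weeks, against 808 and 406 FPKM in CKO and 317 and 897 FPKM in control hearts at 2 weeks, and the 4 hearts high in Myh7 were its 4 highest. Of 18 genes of the foetal and overload programme 0 were higher and 1 lower at an unadjusted p under 0.05, and that was Myl4, with 1.66 and 3.71 FPKM in CKO and 2.50 and 3.89 FPKM in control hearts at 4 weeks, against 245 and 3.67 FPKM in CKO and 4.79 and 26.5 FPKM in control hearts at 2 weeks. Hearts 14 and 16, the hearts with the most Myl7, were the highest.

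**Figure D3:**
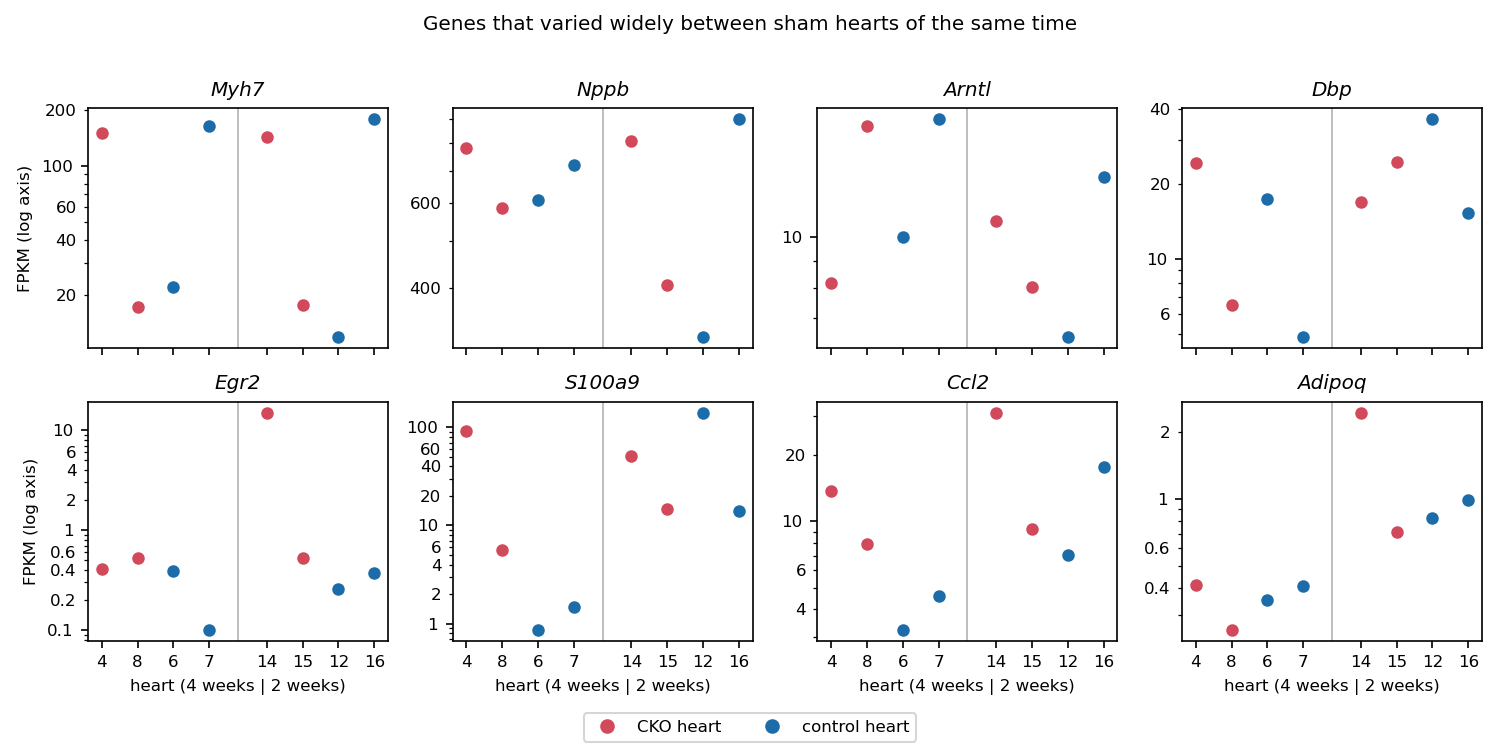
FPKM (log axes) of 8 genes in each sham heart (x axes, heart numbers, 4 weeks left of the line and 2 weeks right of it), CKO hearts red and control hearts blue. Myh7 has 1 high and 1 low heart in every group, Dbp is lowest in hearts 7 and 8 where Arntl is highest, and Adipoq is the panel in which the times do not overlap.

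Inflammation genes had the lowest median of the lists of 10 or more genes outside the cell type markers, -0.39. At an unadjusted p under 0.05, 7 of 25 (28.0%) were lower and 1 (4.00%) higher, against 7.00% and 8.05% of all genes. The median was -0.03 in CKO and -0.86 in control hearts, and 0 genes passed the adjusted test of the genotypes. At an unadjusted p under 0.05, 0 genes of the list were lower in CKO hearts and 8 in control hearts, against 4.02% and 5.77% of all genes. At that threshold CKO minus control was higher in 5 and lower in 0, against 3.39% and 2.59% of all genes. The 7 macrophage markers moved with this. Their median was 0.18 in CKO and -0.62 in control hearts, 0 were lower in CKO hearts and 5 in control hearts, and CKO minus control was higher in 4 at an unadjusted p under 0.05. They summed to 311 to 602 FPKM at 4 weeks and 391 to 611 FPKM at 2 weeks, and their part in the list was not tested. S100a9, the calprotectin subunit of neutrophils, stood at 91.9 and 5.66 FPKM in CKO and 0.861 and 1.48 FPKM in control hearts at 4 weeks, against 51.4 and 14.6 FPKM in CKO and 141 and 14.1 FPKM in control hearts at 2 weeks. Hearts 12 and 4, of different times, were the highest, and hearts 6 and 7 the lowest (-2.51 ± 0.85, limma adjusted p = 0.219). S100a8 was likewise highest in hearts 12 and 4 and lowest in hearts 6 and 7, with 0 to 82.0 FPKM at 4 weeks and 13.1 to 117 FPKM at 2 weeks. The 5 neutrophil markers summed to 5.59 to 192 FPKM at 4 weeks and 36.2 to 284 FPKM at 2 weeks, and their part in the list was not tested. Ccl2, the chemokine that draws monocytes, had 13.8 and 7.94 FPKM in CKO and 3.22 and 4.62 FPKM in control hearts at 4 weeks, against 31.1 and 9.26 FPKM in CKO and 7.05 and 17.6 FPKM in control hearts at 2 weeks (-1.05 ± 0.41), and heart 14 was the highest. Cxcl14, a chemokine of epithelia and fat, went the other way, with 25.7 and 22.0 FPKM in CKO and 25.8 and 26.3 FPKM in control hearts at 4 weeks, against 18.3 and 16.5 FPKM in CKO and 14.4 and 16.1 FPKM in control hearts at 2 weeks. Its groups did not overlap (0.60 ± 0.15, limma adjusted p = 0.139).

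Heart 14 stood apart in further genes. Immediate early genes, which answer acute stimuli within minutes, were 0 higher and 2 (7.41%) lower of 27, against 8.05% and 7.00% of all genes. Egr2, a zinc finger factor of this class, had 0.406 and 0.526 FPKM in CKO and 0.393 and 0.1001 FPKM in control hearts at 4 weeks, against 15.0 and 0.529 FPKM in CKO and 0.255 and 0.368 FPKM in control hearts at 2 weeks, so that heart 14 alone was raised. Fosl2, a Fos family factor, had 6.03 to 8.01 FPKM at 4 weeks and 8.53 to 15.9 FPKM at 2 weeks and did not overlap (-0.52 ± 0.24). Of the fat markers, Adipoq and Cfd were highest in heart 14 as well. Adipoq (adiponectin) had 0.409 and 0.258 FPKM in CKO and 0.353 and 0.404 FPKM in control hearts at 4 weeks, against 2.45 and 0.712 FPKM in CKO and 0.823 and 0.991 FPKM in control hearts at 2 weeks. The times did not overlap, at low levels (-0.93 ± 0.30, limma adjusted p = 0.195). Cfd (adipsin) had 0.554 to 1.69 FPKM at 4 weeks and 2.04 to 17.0 FPKM at 2 weeks (-1.61 ± 0.58), and the 3 other white fat markers listed did not pass the filter. Of the glucocorticoid list 2 of 15 (13.3%) were lower and 0 higher. These were the metallothioneins Mt2 and Mt1, with 26.3 to 110.5 FPKM at 4 weeks and 49.8 to 151 FPKM at 2 weeks, and 278 to 440.4 FPKM at 4 weeks and 360.1 to 513 FPKM at 2 weeks (-0.97 ± 0.37 and -0.36 ± 0.14). In whole hearts, fewer cells of a type and less RNA per cell cannot be told apart.

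The heat shock list gave 3 of 27 (11.1%) higher and 2 (7.41%) lower, against 8.05% and 7.00% of all genes. The co-chaperone gene Dnaja4 had 57.0 to 71.6 FPKM at 4 weeks and 47.8 to 54.9 FPKM at 2 weeks (0.24 ± 0.09), Bag3, which clears damaged sarcomere proteins, 100.3 to 123 FPKM at 4 weeks and 87.5 to 106 FPKM at 2 weeks (0.20 ± 0.08), and Cryab, a small heat shock protein of muscle, 1955 to 2186 FPKM at 4 weeks and 2147 to 2599 FPKM at 2 weeks (-0.22 ± 0.09). Dnajb1, the Hsp40 that works with Hsp70, had 12.8 and 16.5 FPKM in CKO and 20.3 and 14.8 FPKM in control hearts at 4 weeks, against 32.5 and 44.1 FPKM in CKO and 14.0 and 19.5 FPKM in control hearts at 2 weeks. The CKO hearts 14 and 15 were the highest, and the log2 difference was -0.64 ± 0.28. The medians of the list were -0.17 in CKO and 0.20 in control hearts. At an unadjusted p under 0.05, 0 genes were higher and 7 lower in CKO hearts, against 4.67% and 4.02% of all genes. In control hearts 8 were higher and 0 lower, against 6.48% and 5.77% of all genes. CKO minus control was lower in 10 of the 27 at that threshold, against 2.59% of all genes, and 0 passed the adjusted test. In the endoplasmic reticulum stress list 3 of 28 (10.7%) were higher and 1 lower. Among the higher was Syvn1, a ubiquitin ligase of protein quality control, with 7.67 and 8.17 FPKM in CKO and 11.0 and 13.7 FPKM in control hearts at 4 weeks, against 7.29 and 6.96 FPKM in CKO and 7.91 and 8.36 FPKM in control hearts at 2 weeks (0.36 ± 0.10). The 2 control hearts of 4 weeks were the highest.

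Matrix and cell division genes had few members past an unadjusted p of 0.05. Of 56 extracellular matrix genes 3 (5.36%) were higher and 3 (5.36%) lower, below the 8.05% and 7.00% of all genes, with a median of 0.03. Eln (elastin) had 14.7 and 16.4 FPKM in CKO and 12.8 and 11.9 FPKM in control hearts at 4 weeks, against 10.8 and 11.5 FPKM in CKO and 9.91 and 9.98 FPKM in control hearts at 2 weeks. Its hearts did not overlap, at 0.38 ± 0.09 (limma adjusted p = 0.137). Spp1 (osteopontin) had 0 to 1.197 FPKM at 4 weeks and 0.360 to 1.36 FPKM at 2 weeks (-0.85 ± 0.34). Of 38 cell division genes 0 were higher and 1 (2.63%) lower, Tyms, the thymidylate synthase, with 0.403 to 0.698 FPKM at 4 weeks and 0.665 to 0.992 FPKM at 2 weeks (-0.35 ± 0.15), and 29 of the 38 differences were negative. In the interferon response (42 genes), antigen presentation (21) and growth-associated imprinted genes (11), 0 reached an unadjusted p of 0.05 in either direction. The lists of p53 targets (2 higher and 1 lower of 18), thyroid hormone (2 and 0 of 10) and drug response (2 and 2 of 16) held few genes, and Cyp1a1 of the last, an enzyme induced by aryl hydrocarbons, had 5.27 and 12.0 FPKM in CKO and 0.549 and 2.00 FPKM in control hearts at 4 weeks, against 0.984 and 0.423 FPKM in CKO and 2.21 and 0.631 FPKM in control hearts at 2 weeks. The 2 CKO hearts of 4 weeks were the highest, and the log2 difference was 1.37 ± 0.51 (limma adjusted p = 0.259). Markers of endothelium (0 of 7), fibroblasts (1 higher of 8), smooth muscle and pericytes (1 higher of 8), macrophages (1 lower of 7) and mast cells (1 higher of 5) gave 1 gene at most. Those of ventricular muscle (2 of 8), atrial muscle (2 of 5), neutrophils (2 of 5) and white fat (2 of 2) each gave 2 lower and 0 higher. The ventricular markers had a median log2 difference of -0.15. Among them Myl2 did not overlap, with 28220 to 32399.8 FPKM at 4 weeks and 32794.3 to 41290.2 FPKM at 2 weeks.

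The genotypes were then compared in their change. Limma called 0 genes (0%) for CKO minus control, with a smallest adjusted p of 0.0793 (the predicted gene Gm20571, listed at 0 in 4 of the 8 hearts), and 753 genes (5.98%) at an unadjusted p under 0.05. Rab3il1, an activator of Rab proteins of secretion, had the smallest p of the named genes, with 8.40 and 8.00 FPKM at 4 weeks against 6.00 and 5.52 FPKM at 2 weeks in CKO hearts, and 6.16 and 6.08 FPKM at 4 weeks against 8.58 and 8.05 FPKM at 2 weeks in control hearts. The 4-week hearts were the higher ones among CKO hearts and the lower ones among control hearts, at a difference of 0.89 ± 0.15 (SE, limma adjusted p = 0.208). B3galnt1, a glycosyltransferase, had 2.72 and 2.57 FPKM at 4 weeks against 0.935 and 0.516 FPKM at 2 weeks in CKO hearts, and 1.57 and 0.897 FPKM at 4 weeks against 1.49 and 1.35 FPKM at 2 weeks in control hearts. The CKO hearts of 4 weeks were above all the others (1.56 ± 0.30, adjusted p = 0.391). Epn3, an epsin of endocytosis, had 6.87 to 13.4 FPKM at 4 weeks and 6.03 to 11.8 FPKM at 2 weeks (1.40 ± 0.30), while Tmem29 and Wibg, at -1.11 ± 0.21 and 0.73 ± 0.17, completed the 5 smallest. The median SE of this difference was 0.23. Leaving out a heart gave 2 calls without heart 6, 1 without heart 7, 3 without heart 14 and 1 without heart 15, all of them small RNA loci.

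Sham hearts were last set against TAC hearts in the change between the same times. Here 1675 genes (13.3%) passed limma for the difference of the changes, sham minus TAC, 822 (6.53%) higher and 853 (6.78%) lower. Among them the sham change was the larger in size in 220 (13.1%), and in the rest the TAC change was. The TAC hearts differed by at least 1 on the log2 scale in 230 genes (1.83%), against 71 (0.564%) in sham hearts. At an unadjusted p under 0.05 the changes differed in 3791 genes (30.1%). The count of 1675 became 676 without the hearts of high Myl7. It became 1022 without heart 2, 762 without heart 6, 967 without heart 8, 778 without heart 15, 919 without heart 16, 781 without heart 31 and 1001 without heart 32.

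Of 56 extracellular matrix genes 39 (69.6%) were called in the direction higher in sham and 0 lower, against 6.53% and 6.78% of all genes, with a median log2 change of 0.03 in sham and -0.93 in TAC hearts. Fn1 (fibronectin) had 7.28 and 8.89 FPKM in CKO and 5.90 and 4.62 FPKM in control hearts at 4 weeks, against 6.43 and 5.21 FPKM in CKO and 6.499 and 4.88 FPKM in control hearts at 2 weeks after sham. After TAC it had 5.64 and 6.12 FPKM in CKO and 9.34 and 12.4 FPKM in control hearts at 4 weeks, against 21.7 and 24.1 FPKM in CKO and 25.3 and 29.5 FPKM in control hearts at 2 weeks. All 8 sham hearts were below the 4 TAC hearts of 2 weeks (1.76 ± 0.18, limma adjusted p = 0.000321).

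Postn (periostin), a matrix protein of activated fibroblasts, had 21.5 and 22.3 FPKM in CKO and 15.2 and 10.9 FPKM in control hearts at 4 weeks, against 20.2 and 18.8 FPKM in CKO and 20.6 and 18.3 FPKM in control hearts at 2 weeks after sham. The TAC hearts had 44.6 and 23.5 FPKM in CKO and 128 and 119 FPKM in control hearts at 4 weeks, against 172 and 225 FPKM in CKO and 358 and 413 FPKM in control hearts at 2 weeks. The difference of the changes was 1.90 ± 0.23 (limma adjusted p = 0.00187). Eln had the smallest adjusted p, 1.49e-05, at 1.83 ± 0.13, with a log2 difference of 0.38 between times after sham and -1.45 after TAC. Sparc, a collagen-binding protein of matrix assembly, stood at 163 to 284 FPKM at 4 weeks and 199 to 254 FPKM at 2 weeks after sham and gave 1.19 ± 0.14. Col5a2, C1qtnf6, Ppic, Chst1, Aspn and Oaf, the others of the 10 smallest p, lay between 0.98 ± 0.09 and 1.78 ± 0.17.

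Other lists divided by direction. Of 38 cell division genes 17 (44.7%) were called in the direction higher in sham and 0 lower, against 6.53% and 6.78% of all genes. The median log2 change of the list was negative after both operations, -0.18 after sham and -1.09 after TAC. Of the 17 called, 16 were among the 20 genes of mitosis. Fibroblast markers had 7 of 8 in that direction, with median log2 changes of 0.15 after sham and -0.55 after TAC. A change in the number of these cells cannot be told apart from a change in RNA per cell. Genes of oxidative phosphorylation had 52 of 75 (69.3%) called lower and 0 higher, with medians of -0.12 after sham and 0.28 after TAC. Fatty acid oxidation had 20 of 28 (71.4%), the tricarboxylic acid cycle 15 of 22 (68.2%), PPAR targets 10 of 17 (58.8%), and sarcomere and glycolysis genes 7 of 22 (31.8%) and 7 of 19 (36.8%), all of them lower and 0 higher. The difference of the changes also went with transcript length, with a median of -0.13 in the shortest and 0.09 in the longest of 5 groups of genes. The part of length in the counts of these lists was not tested. Cox6a2 had opposite signs after the 2 operations, with a log2 difference of -0.35 after sham and 0.36 after TAC (-0.71 ± 0.10, limma adjusted p = 0.0031). Fxyd1 was alike in this, at -0.24 and 0.30 (-0.55 ± 0.07, adjusted p = 0.00206), and Zbed3 and Spon2 in the opposite sense, at 0.78 ± 0.14 and 1.35 ± 0.20. For Bcl6 and Egln3 the difference of the changes did not pass (0.59 ± 0.26, adjusted p = 0.141, and 0.51 ± 0.22, adjusted p = 0.138).

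**Figure D4:**
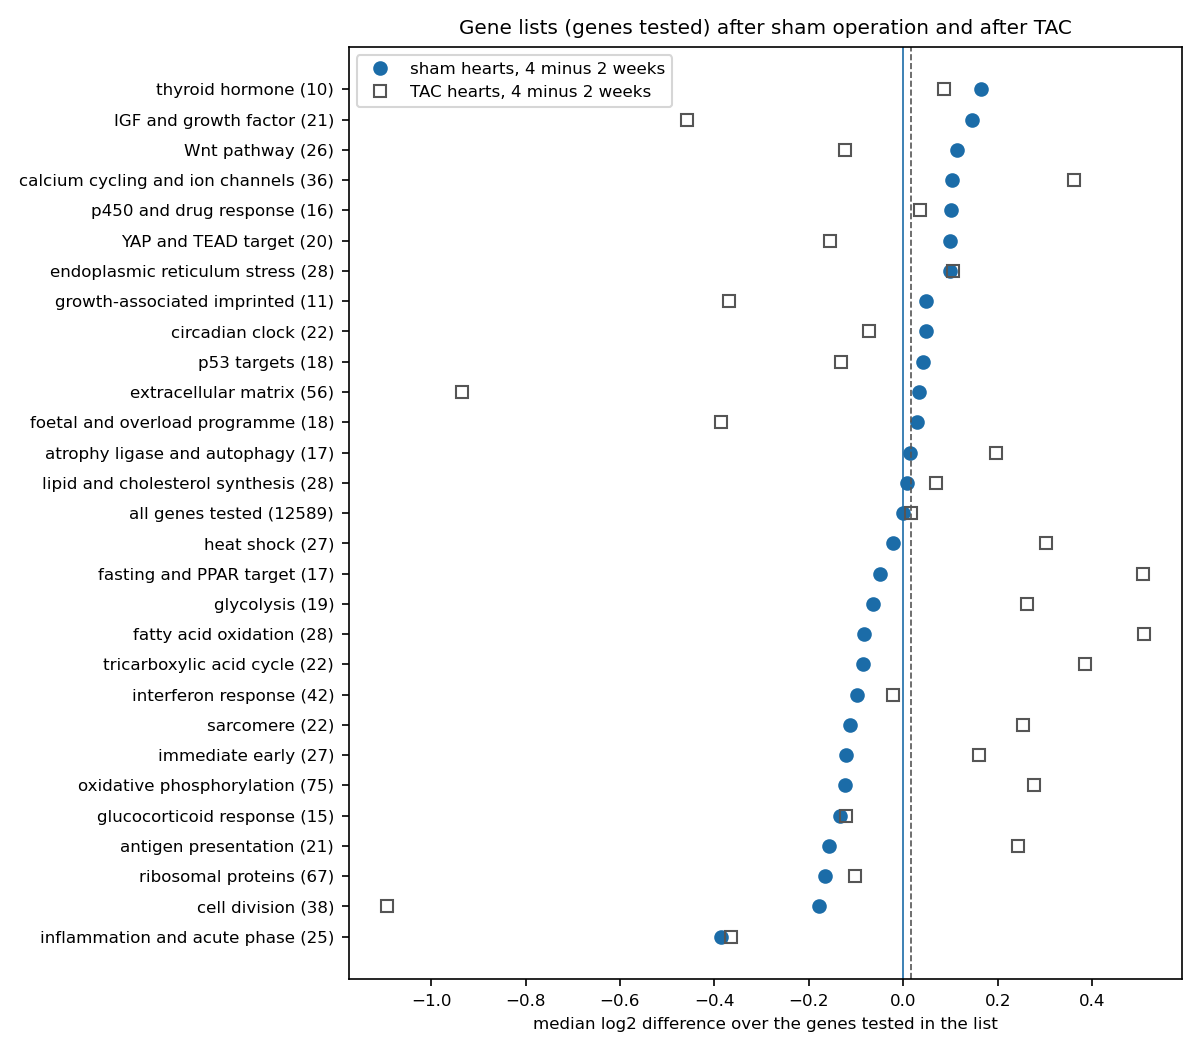
Median log2 difference of 4 minus 2 weeks (x axis) over the tested genes of each list (y axis, number of genes in brackets), filled circles for sham hearts and open squares for TAC hearts, with lines at the medians of all genes. Sham medians lie between -0.39 for inflammation and 0.16 for thyroid hormone, and TAC medians run from -1.09 for cell division to 0.51 for fatty acid oxidation.

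**Figure D5:**
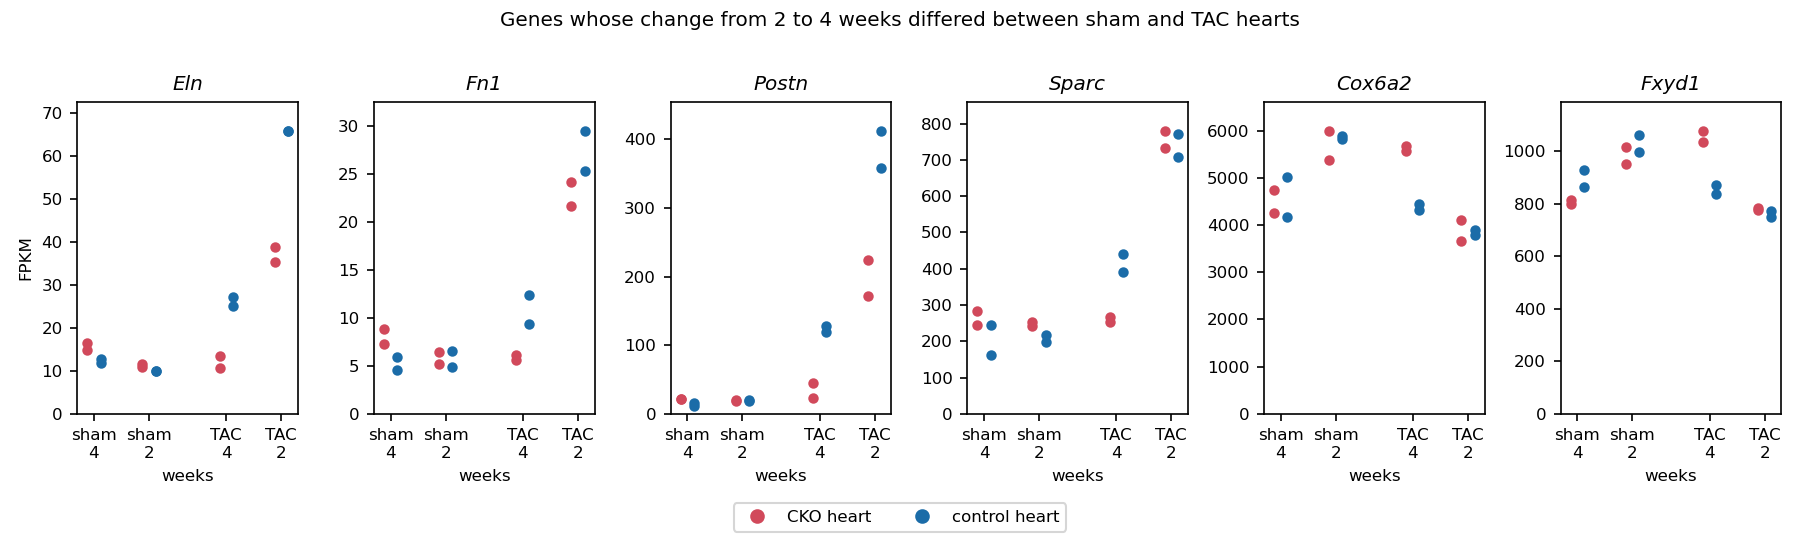
FPKM (y axes, from 0) of 6 genes in each sham and TAC heart at 4 and 2 weeks (x axes), CKO hearts red and control hearts blue. Fn1 stays between 4.62 and 8.89 FPKM in sham hearts and reaches 29.5 FPKM in TAC hearts of 2 weeks, while Cox6a2 is lower at 4 weeks after sham.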

How the data were processed

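Messenger RNA libraries were made from total RNA with a TruSeq Stranded mRNA kit, per the labels' protocols. The authors deposited 1 FPKM value per gene and heart. Per the submitters' processing notes, TopHat2 2.1.1, Bowtie2 (version not given), Cuffdiff 2.2.1 and the mouse build mm10 were used. Fragment counts were not analysed here, so no interval from depth is given. Relative depth was read from low values of 2732 genes, where 96.2% of 24267 values were whole multiples of 1 fragment within 5%, and was 0.877 to 1.21 over the 20 hearts.

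Log2(FPKM + 0.5) of the 12589 genes that averaged 0.5 FPKM or more was fitted with limma 3.58.1 (R 4.3.3), 1 mean per group of 2 hearts, all 20 hearts sharing 1 estimate of the spread, with eBayes and trend and Benjamini-Hochberg adjustment over all genes. Fold changes on this scale understate those of low genes. The main contrast was 4 minus 2 weeks averaged over the genotypes. The others were each genotype alone, CKO minus control, and sham minus TAC. The hearts are separate samples by their labels, which name no cohort or batch. The p-values set a difference against the spread between hearts of a group, pooled over all 10 groups and moderated across genes. Whether a batch enters that spread or the differences cannot be told.

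The members and gene lists were chosen with earlier results of these data known, and the ribosomal list after its values had been seen. As 0 genes passed, the text names the 10 smallest p in each direction among genes of at least 1 FPKM over the sham hearts whose times did not overlap within either genotype, clone-named genes passed over, up to 4 genes a list by p, at most 10 genes past the threshold of a difference (otherwise 5), and Wnt5a, Esr1 and Myl7. Of the genes this rule picks, 1 is not reported here. Uqcrc1, Kcnj12, Arntl, Ccl2, Egr2, Myh7, Nppb, Gm129 and Mir703 were named after their values were seen. Positions and transcript lengths came from GENCODE M21 and promoters from RefSeq (GRCm38.p6), both of the same build. Python 3.11.15 with numpy 2.4.6, pandas 2.3.3 and matplotlib 3.10.9 made the lists and figures. Alternatives were other pseudocounts, filters, scalings, fits and left-out hearts.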

Additional observations from a re-analysis of the deposited data

Results flagged for a closer look

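The change between 2 and 4 weeks differed between sham and TAC hearts in 1675 genes by limma (adjusted p under 0.05). The difference is the sham change minus the TAC change on the log2 scale. A positive value is therefore not a higher level in sham hearts. Postn had 10.9 to 22.3 FPKM in sham hearts and 172 to 413 FPKM in TAC hearts of 2 weeks. The 10 genes with the smallest p all had positive values. They were Eln (1.83), C1qtnf6 (1.78), Ppic (0.98), Fn1 (1.76), Col5a2 (1.21), Chst1 (1.57), Sparc (1.19), Postn (1.90), Aspn (1.37) and Oaf (1.14). They were picked by the interaction test of the 2 operations, so their passing it was set by the choice. No sample far from the rest could be looked for within a group, since each group has 2 hearts.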

How the results depend on the processing

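The count of 0 genes over both genotypes was kept under 12 of 19 alternatives, among them pseudocounts of 0.1 and 1, a filter at 3 FPKM, median-ratio and quantile scaling, no trend and an additive model of the 8 sham hearts. Without a filter, limma called 2 genes over both genotypes, 1 in CKO hearts, 1 in control hearts and 2 between the genotypes. With only the groups compared in the fit it called 1 over both genotypes, 2 in control hearts and 1 between the genotypes (Snord89 in each). Without the hearts of high Myl7 it called 4, with 5 in CKO hearts, 6 between the genotypes and 676 for sham minus TAC. A pseudocount of 0.1 gave 1 gene between the genotypes. Leaving out 1 heart at a time gave 0 to 4 over both genotypes, 0 to 4 in CKO hearts, 0 to 3 in control hearts, 0 to 3 between the genotypes and 762 to 2045 for sham minus TAC. The cause of these shifts was not tested. Of 702 alternatives of 37 list medians 8 moved by more than the spread, among them ribosomal proteins (-0.08) and the Wnt pathway (0.04) with the length trend removed, a step chosen after seeing the data, glycolysis under quantile normalization (0.05) and the clock list without the hearts of high Myl7 (-0.03). Of 86 genes with tests 0 were reversed. No paired analysis was possible because each heart number occurs once, so the groups share no replicate number. With 2 hearts a group, a median 95% interval of 0.25 to either side limits what could be seen.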
